A study of Mus musculus with 14 samples.

Results

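The sterol and fatty acid synthesis genes described here are 36 genes under the control of the SREBP transcription factors, 22 of a cholesterol branch and 14 of a fatty acid branch. They were taken by symbol from a list of known pathway members, and no threshold on a measured value entered the rule. All 36 had a row among the 21431 features with a gene name, and all 36 passed the filter on low counts that left 12300 features for testing. Expression was measured by RNA sequencing in 14 samples from male C3HeB/FeJ mice aged 18 months. This inbred strain is prone to liver tumours that arise without a carcinogen. No allele, transgene or implanted cell is named for any sample.

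Normal liver gave 4 samples, here Normal 1 to 4. The tumours carry the mark Grow in 6 samples and Regress in 4, numbered likewise. The labels do not define how growth and regression were scored. All mice went through 6 cycles of 28 days, each opening with 5 days of injections, after a check for tumours at 10 months. The normal livers and Regress 2 had phosphate citrate buffer, while Grow 1, Grow 5 and Regress 4 had DMSO, a solvent. Regress 1 and Regress 3 had temozolomide (TMZ, a DNA-alkylating drug) at 31 mg/kg, and Grow 6 had SAHA (vorinostat, a histone deacetylase inhibitor) at 100 mg/kg. Grow 2, Grow 3 and Grow 4 had SAHA at 85 mg/kg with TMZ at 22 mg/kg. One sample code is shared by Normal 4 and Regress 2. Whether a code stands for a mouse is not stated, so every p-value here covers only the spread among the libraries, some of which may come from 1 animal.

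Liver makes cholesterol from acetyl-CoA through mevalonate, isoprenoids, squalene and lanosterol, and makes fatty acids from the same precursor through malonyl-CoA. INSIG proteins hold SREBP-2, encoded by Srebf2, in the endoplasmic reticulum together with SCAP. When membrane cholesterol is low, SREBP-2 is no longer held there and switches on the sterol enzymes. SREBP-1c, a product of Srebf1, and the carbohydrate-responsive factor encoded by Mlxipl drive fatty acid synthesis after feeding.

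Promoters are shown for Hmgcs1 and Mvd, which were called higher in the tumours, and for Fasn, the reference gene of the fatty acid branch, because SREBPs bind a sterol regulatory element, usually close to a CCAAT box. The sequences are the 250 bases before the start of the gene on its own strand, from RefSeq on GRCm38.p6. Hmgcs1 is at chr13:119690101-119690350 on the plus strand, Mvd at chr8:122443423-122443672 on the minus strand, and Fasn at chr11:120824548-120824797 on the minus strand. Capitals mark matches to TCACNCCAC, a form of the sterol regulatory element, and to CCAAT, each searched on both strands, where the reverse of CCAAT reads ATTGG.
Hmgcs1: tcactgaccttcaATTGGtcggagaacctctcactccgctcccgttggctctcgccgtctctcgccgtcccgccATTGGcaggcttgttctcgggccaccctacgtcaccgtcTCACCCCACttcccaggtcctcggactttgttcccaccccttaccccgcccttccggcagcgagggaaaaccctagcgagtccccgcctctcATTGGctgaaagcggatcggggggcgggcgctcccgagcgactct
Mvd: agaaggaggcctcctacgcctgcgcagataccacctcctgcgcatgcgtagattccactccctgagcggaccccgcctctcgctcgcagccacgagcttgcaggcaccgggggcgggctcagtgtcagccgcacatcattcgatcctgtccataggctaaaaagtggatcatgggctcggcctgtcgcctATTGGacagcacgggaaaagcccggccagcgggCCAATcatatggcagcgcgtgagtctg
Fasn: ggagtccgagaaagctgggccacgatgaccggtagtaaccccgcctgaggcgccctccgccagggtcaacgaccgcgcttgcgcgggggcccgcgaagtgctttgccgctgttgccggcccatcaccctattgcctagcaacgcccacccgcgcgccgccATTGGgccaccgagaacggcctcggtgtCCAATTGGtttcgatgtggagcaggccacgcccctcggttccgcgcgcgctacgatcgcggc

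The Hmgcs1 promoter held 1 match to TCACNCCAC, 137 to 129 bases before the start, and 3 CCAAT boxes in reverse. Mvd held 2 CCAAT boxes, and Fasn held 3, of which 2 overlap. RefSeq promoters were matched for 18 of 22 cholesterol genes (21 windows) and 12 of 14 fatty acid genes (17 windows). Sqle, Fdps, Fdft1, Stard4, Scd1 and Dgat2 were not matched. The Thrsp window overlaps an exon of that gene in GENCODE M21 and is not printed. Over windows of 300 bases that run to 50 bases after the start, CCAAT was in 17 of 21 cholesterol windows (81%) and 11 of 17 fatty acid windows (64.7%). It was in 37.4% of all 32851 promoter windows. TCACNCCAC was in 1 cholesterol window (Hmgcs1, 4.76%) and 1 fatty acid window (Mlxipl, 5.88%), against 1.24% of all. The E box CACGTG, which reads the same on both strands, was in 4 of 21 cholesterol windows (19%) and 2 of 17 fatty acid windows (11.8%), against 7.15% of all. A match is a description of letters and not a measured binding site.

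Libraries held 4707063 to 13394301 estimated counts. Levels are CPM, counts scaled to a common TMM-adjusted library size. A length slope was fitted to log2 CPM, minus each gene's mean over all libraries, against log2 transcript length. It ran from -0.48 in Regress 3 to 0.45 in Normal 3. What sets this slope, RNA quality included, was not tested. Hepatocyte markers were abundant in every library, with summed levels of 64527 to 94795 CPM in Normal, 42408 to 245188 CPM in Grow and 85703 to 183206 CPM in Regress. Alb was the largest part of every sum, at 28650 to 53813 CPM in Normal and 26020 to 187356 CPM in the tumours. The sums therefore follow Alb more than the other markers. None of the 9 markers with a row passed the test in any group comparison, and their median log2 fold change in the tumours was -0.21. Proliferation markers summed to 1.16 to 2.98 CPM in Normal and 3.16 to 54 CPM in the tumours. In bulk tissue, fewer cells of a type and less RNA per cell cannot be told apart.

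Compared with normal liver, the tumours held more mRNA of 2 mevalonate pathway enzymes, Hmgcs1 and Mvd, and less of the triglyceride enzyme Dgat2. These 3 of 36 genes were called when the effects in Grow and Regress were averaged (edgeR, Benjamini-Hochberg adjusted p under 0.05), while 2.32% of all 12300 tested features were. Regress 2 was the only tumour given the buffer of the normal livers. Effects of tumour and of injected substance therefore cannot be told apart in the comparisons with normal liver. The cholesterol branch had 2 genes called higher, and its median log2 fold change was 0.72. The fatty acid branch had 1 called lower, with a median of -0.22, beside a median of 0.01 over all tested features. The fold change was positive for 20 of 22 cholesterol genes, 5 of 14 fatty acid genes and 50.9% of all tested features. An unadjusted p under 0.05 was found for 11 of 22 cholesterol genes, 5 of 14 fatty acid genes and 2213 of 12300 tested features. The count rested on single libraries. The share of all tested features called is given only for the main fits, so counts from other fits cannot be set against it. Without Regress 1 edgeR called 9 genes, adding Lss, Cyp51, Mvk, Srebf1, Thrsp and Mlxipl, and without Normal 1, Normal 2, Normal 3 or Grow 5 it called 0. Without Grow 2 it called 4, without Regress 4 it called 4, without Regress 2 it called 2, and without Normal 4 or any one of Grow 1, 3, 4 and 6 and Regress 3 it called 1.

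**Figure D1:**
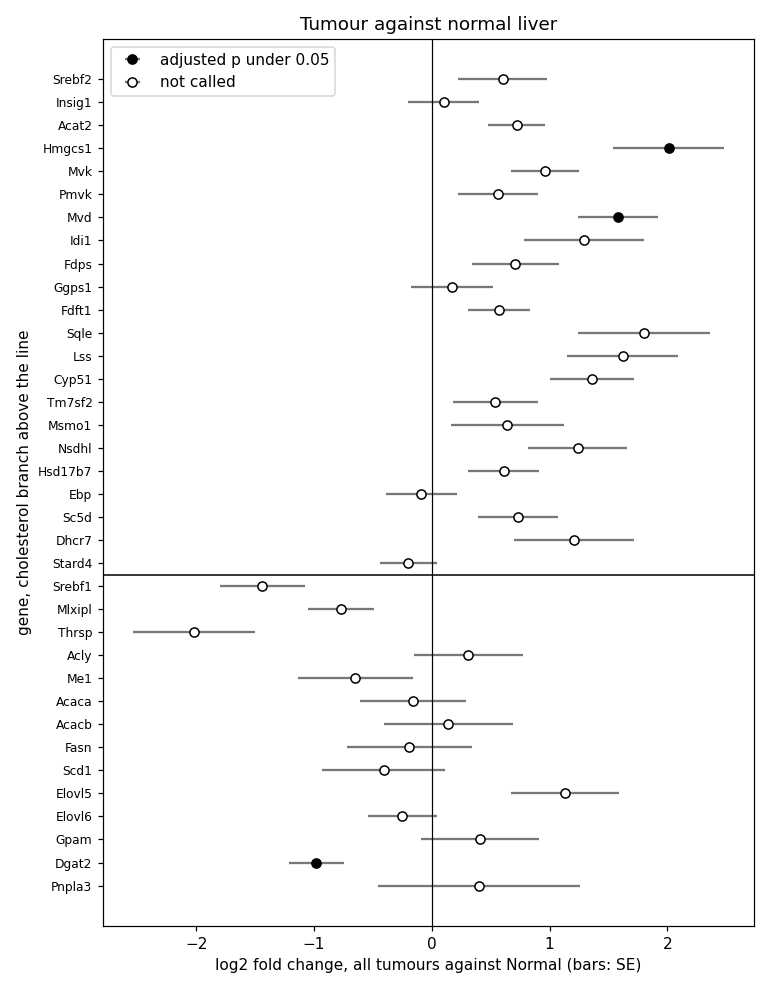
Log2 fold change of each of the 36 genes in all tumours against normal liver (x axis, bars are SE), in pathway order with the cholesterol branch above the line. Filled points mark Hmgcs1, Mvd and Dgat2, the 3 genes with an adjusted p under 0.05, and 20 of 22 cholesterol genes lie to the right of 0.

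Hmgcs1 encodes the cytosolic HMG-CoA synthase that commits acetyl-CoA units to the mevalonate pathway. Its level was 33.9, 24, 50.2 and 128 CPM in Normal 1 to 4. In Grow it ran from 132 to 289 CPM with a median of 249, and in Regress 1 to 4 it was 171, 166, 159 and 466 CPM. All 10 tumours lay above all 4 normal livers, although Normal 4 at 128 CPM came close to Grow 6 at 132 CPM. The group means were 59.1 ± 47.3 CPM (SD, n = 4) in Normal, 235 ± 55.2 CPM (SD, n = 6) in Grow and 240 ± 150 CPM (SD, n = 4) in Regress. Hmgcs1 rose 4.02-fold in the tumours (log2 fold change 2.01, SE 0.47, edgeR adjusted p = 0.0403). Its log2 fold change was 1.99 in Grow (adjusted p = 0.0515) and 2.02 in Regress (adjusted p = 0.0796), each above the threshold. The tumour call held without Normal 4, Grow 2, Regress 1 or Regress 4. Without any one of the other 10 libraries the log2 fold change was 1.74 to 2.08 and the adjusted p 0.0516 to 0.141. It was also lost without Normal 4 and Regress 2 together (0.0547) and with Grow 3 and Grow 4 summed (0.0524).

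Mvd encodes the decarboxylase that makes isopentenyl diphosphate at the end of the mevalonate segment. Its level was 6.14, 12.4, 10.8 and 21.5 CPM in Normal 1 to 4, 20.5 to 56.4 CPM (median 36.8) in Grow, and 34.7, 38.7, 29.1 and 52.2 CPM in Regress 1 to 4. The groups overlapped only through Grow 6 at 20.5 CPM, which lay below Normal 4. Mvd rose 3-fold in the tumours (log2 fold change 1.58, SE 0.34, edgeR adjusted p = 0.0328). It also rose in Grow alone (1.57, SE 0.36, adjusted p = 0.0424), while Regress gave 1.60 with adjusted p = 0.0686. The tumour call was lost without Normal 1 (adjusted p = 0.0997), Normal 2 (0.0807), Normal 3 (0.13), Normal 4 (0.0627) or Grow 5 (0.0547). The Grow call held without Grow 2, Regress 1 or Regress 4, and without any other single library its adjusted p was 0.0509 to 0.125. Without Normal 4 and Regress 2 together both calls were lost (0.0853 and 0.0666), and the Grow call was also lost with no filter on low counts (0.0522) and with Grow 3 and Grow 4 summed (0.0602).

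The other 3 genes of the mevalonate segment did not pass the test. Mvk, mevalonate kinase, was at 14.7, 9.29, 17.8 and 31.6 CPM in Normal 1 to 4, 25.7 to 35.1 CPM (median 29.5) in Grow and 26.6, 58.7, 35.5 and 53.2 CPM in Regress 1 to 4. Only Normal 4 reached the tumour range. In the tumours its log2 fold change was 0.96 (SE 0.29, edgeR adjusted p = 0.0909). Acat2, the cytosolic thiolase, gave 0.72 (adjusted p = 0.118) and Pmvk, phosphomevalonate kinase, 0.56 (adjusted p = 0.44).

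The isoprenoid enzymes followed with positive and uncalled values. Idi1, the isopentenyl diphosphate isomerase, was at 92.3, 162, 95.8 and 431 CPM in Normal 1 to 4, 225 to 703 CPM (median 394) in Grow and 1009, 398, 365 and 304 CPM in Regress 1 to 4. Normal 4 lay inside the tumour range, and the other 3 normal livers lay below it. Across the tumours the log2 fold change was 1.29 (SE 0.51, edgeR adjusted p = 0.193). Fdps, farnesyl diphosphate synthase, gave 0.71 (adjusted p = 0.345) and Ggps1, the geranylgeranyl diphosphate synthase of a side branch, 0.17 (adjusted p = 0.896).

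The squalene segment had the highest median log2 fold change of the 6 cholesterol segments, 1.62 over 3 genes, and none of the 3 was called. Sqle, squalene epoxidase, a rate-controlling enzyme, was at 8.43, 11.6, 41.7 and 98.9 CPM in Normal 1 to 4. It was at 106 to 208 CPM (median 129) in Grow and 86.7, 182, 92.4 and 200 CPM in Regress 1 to 4. Normal 4 overlapped with Regress 1 and Regress 3. The log2 fold change was 1.80 (SE 0.56, edgeR adjusted p = 0.0965), and without Normal 4, where it moved furthest, it was 2.76 (adjusted p = 0.0691).

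Lss, which closes squalene epoxide into lanosterol, was at 23.3, 31.5, 43.6 and 50.8 CPM in Normal 1 to 4. It was at 51.5 to 155 CPM (median 110) in Grow and 55.6, 149, 52 and 245 CPM in Regress 1 to 4. All 10 tumours lay above all 4 normal livers, with Normal 4 at 50.8 CPM and Grow 4 at 51.5 CPM next to each other. The log2 fold change of 1.62 (SE 0.47) had an edgeR adjusted p of 0.0758, and without Regress 1 it was called at 1.74 (adjusted p = 0.0328). Hmgcs1, Lss and Dgat2 were the 3 of 36 genes with no overlap between tumour and normal libraries, as were 2.02% of all tested features. Fdft1, squalene synthase, gave a log2 fold change of 0.57 (adjusted p = 0.255).

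**Figure D2:**
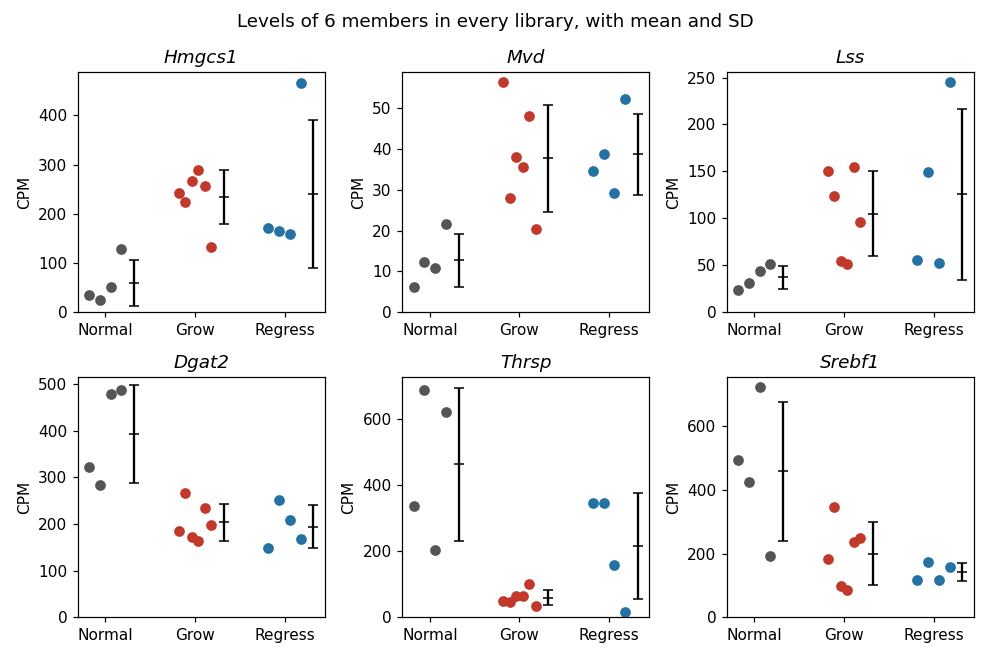
CPM of 6 genes (y axes, linear from 0) in every library of the 3 groups (x axes), with the mean and SD beside the points. Hmgcs1 and Lss lie higher, and Dgat2 lower, in all 10 tumours than in all 4 normal livers, and Thrsp is at 34.9 to 101 CPM in Grow against 204 to 688 CPM in Normal.

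Of the 8 enzymes after lanosterol, 7 had a positive log2 fold change in the tumours and none was called. Cyp51, the lanosterol demethylase, was at 46.5, 45.4, 84.9 and 162 CPM in Normal 1 to 4, 120 to 222 CPM (median 192) in Grow and 158, 343, 225 and 306 CPM in Regress 1 to 4. Normal 4 lay inside the tumour range and the other 3 normal livers below it. The log2 fold change was 1.36 (SE 0.36, edgeR adjusted p = 0.06), and without Regress 1 it was called at 1.44 (adjusted p = 0.0267). Nsdhl gave 1.24 (adjusted p = 0.119) and Dhcr7, which makes the last step to cholesterol, 1.21 (adjusted p = 0.218). Sc5d (0.73), Msmo1 (0.64), Hsd17b7 (0.61), Tm7sf2 (0.54) and Ebp (-0.09) were smaller, with adjusted p of 0.28 to 0.951. Stard4, a sterol carrier, gave -0.20 (adjusted p = 0.787).

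Neither regulator of the cholesterol branch was called. Srebf2 was at 25.8, 24, 50.4 and 43.4 CPM in Normal 1 to 4, 50.6 to 74.8 CPM (median 56.6) in Grow and 25.8, 37.4, 23.7 and 114 CPM in Regress 1 to 4. All Grow tumours lay above the normal livers, whereas 3 of 4 Regress tumours lay within or below their range. Its log2 fold change in the tumours was 0.60 (SE 0.38, edgeR adjusted p = 0.468). Insig1, which holds SREBP in the endoplasmic reticulum and is itself an SREBP target, was at 548, 839, 371 and 413 CPM in Normal 1 to 4. It was at 379 to 680 CPM (median 425) in Grow and 879, 975, 517 and 449 CPM in Regress 1 to 4, so that all groups overlapped. The tumours gave a log2 fold change of 0.10 (SE 0.30, adjusted p = 0.94).

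The normal livers also differed among themselves in the cholesterol branch. Taking each gene's log2 CPM minus its mean over the normal livers, the branch median was -0.56 in Normal 1, -0.18 in Normal 2, 0.00 in Normal 3 and 0.82 in Normal 4. It was 0.45 to 0.93 in Grow and 0.66 to 1.34 in Regress. All 10 tumours lay above Normal 1 to 3, and Normal 4 lay inside the tumour range. Normal 1 was the lowest library for 11 of 22 cholesterol genes, and Regress 1, 2 and 4 were the highest for 6, 5 and 5. Leaving out Normal 4 gave a branch median log2 fold change of 1.07, and leaving out Normal 1 gave 0.54.

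**Figure D3:**
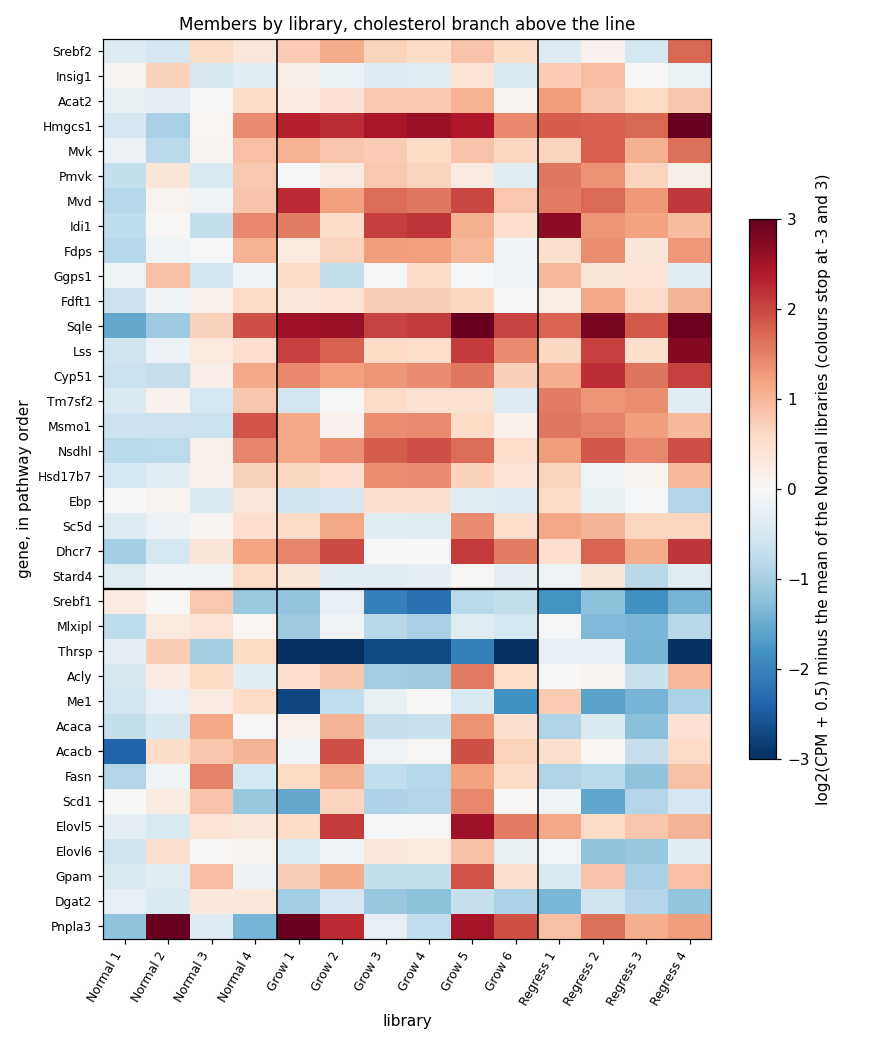
Log2(CPM + 0.5) of each gene (rows, pathway order) in each library (columns), minus the mean of the 4 normal livers, with colours that stop at -3 and 3. The cholesterol branch is above the horizontal line; red is widespread there in the tumours and in Normal 4, while the fatty acid branch below differs from library to library.

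In the fatty acid branch the 3 regulators had negative log2 fold changes in the tumours and the enzymes went both ways. Thrsp, a promoter of lipogenesis also called Spot 14, was at 337, 688, 204 and 623 CPM in Normal 1 to 4. It was at 34.9 to 101 CPM (median 56.3) in Grow, and at 347, 347, 158 and 16.6 CPM in Regress 1 to 4. All Grow tumours lay below all normal livers, and Regress was split, with Regress 4 the lowest of the 14 libraries. Thrsp fell 7.71-fold in Grow (log2 fold change -2.95, SE 0.60, edgeR adjusted p = 0.0301). In Grow 2 of 36 genes were called, Mvd and Thrsp, beside 1.76% of all tested features. The Thrsp call held without Grow 2 or any one Regress tumour. Without any other single library the log2 fold change was -3.20 to -2.70 and the adjusted p 0.0504 to 0.0972. It was also lost with limma-voom (0.0853), with the drug terms (0.173), with Grow 3 and Grow 4 summed (0.0537) and without Normal 4 and Regress 2 together (0.0948). In all tumours together it was -2.02 (SE 0.52, adjusted p = 0.0545), and it was called without Regress 1 (adjusted p = 0.03) or Regress 4 (adjusted p = 0.0305).

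Srebf1 was at 495, 426, 723 and 192 CPM in Normal 1 to 4, 87.3 to 346 CPM (median 209) in Grow and 119, 175, 118 and 157 CPM in Regress 1 to 4. Normal 4 lay among the tumours, and the other 3 normal livers lay above all of them. The log2 fold change in the tumours was -1.44 (SE 0.36, edgeR adjusted p = 0.0515). It was called without Grow 2 (-1.56, adjusted p = 0.0372) or Regress 1 (-1.41, adjusted p = 0.0432). Mlxipl was at 73.7, 153, 166 and 130 CPM in Normal 1 to 4, 58.2 to 116 CPM (median 78) in Grow and 119, 49.2, 48.2 and 69.8 CPM in Regress 1 to 4. Only Normal 1 lay within the tumour range. Its log2 fold change was -0.77 (SE 0.28, adjusted p = 0.155), and without Regress 1 it was called at -0.96 (adjusted p = 0.0354).

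Dgat2, which adds the last acyl chain to triglyceride, was at 322, 284, 478 and 486 CPM in Normal 1 to 4. It was at 163 to 267 CPM (median 191) in Grow and 148, 251, 209 and 167 CPM in Regress 1 to 4. All tumours lay below all normal livers, the nearest being Grow 2 at 267 CPM and Normal 2 at 284 CPM. Dgat2 fell 1.98-fold in the tumours (log2 fold change -0.98, SE 0.23, edgeR adjusted p = 0.0397), with -0.95 in Grow (adjusted p = 0.0653) and -1.02 in Regress (adjusted p = 0.0974). The call held without Grow 2, Regress 1, Regress 2 or Regress 4. Without any one of the other 10 libraries the log2 fold change was -1.11 to -0.87 and the adjusted p 0.0516 to 0.152. The Dgat2 call was also lost with limma-voom (0.0679), with no filter on low counts (0.063), with the drug terms (0.0751), with Grow 3 and Grow 4 summed (0.0524) and without Normal 4 and Regress 2 together (0.159).

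The enzymes that build the chain varied widely within normal liver and within the tumours. Fasn, fatty acid synthase, was at 189, 323, 981 and 241 CPM in Normal 1 to 4, 190 to 802 CPM (median 514) in Grow and 185, 197, 149 and 636 CPM in Regress 1 to 4. Grow 2 (729 CPM) and Grow 5 (802 CPM) were high, and Grow 3, Grow 4 and Regress 1 to 3 were at or below 207 CPM. Its log2 fold change in the tumours was -0.19 (SE 0.53, edgeR adjusted p = 0.932), and without Normal 3, the highest library, it was 0.59 (adjusted p = 0.716).

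Acaca, the cytosolic acetyl-CoA carboxylase, was at 48.8, 57.6, 180 and 82.8 CPM in Normal 1 to 4, 50 to 206 CPM (median 101) in Grow and 42.6, 59.5, 33.2 and 109 CPM in Regress 1 to 4. Grow 5, Normal 3 and Grow 2 were again the 3 highest. The log2 fold change was -0.16 (SE 0.45, edgeR adjusted p = 0.934), and without Normal 3 it was 0.39 (adjusted p = 0.809).

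Acly, ATP-citrate lyase, which supplies cytosolic acetyl-CoA to both branches, was at 144, 239, 308 and 159 CPM in Normal 1 to 4. It was at 96.1 to 602 CPM (median 289) in Grow and 205, 216, 128 and 402 CPM in Regress 1 to 4. Its range in Grow enclosed the whole normal range. Across the tumours the log2 fold change was 0.31 (SE 0.46, edgeR adjusted p = 0.838).

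Scd1, stearoyl-CoA desaturase, was the most abundant of the 36 genes per kilobase of transcript, at a mean of 2038 CPM per kb in Normal, 2044 in Grow and 1143 in Regress. Thrsp followed in Normal at 363 CPM per kb, and Ggps1 was the lowest at 1.26. In CPM Scd1 was at 8831, 10657, 15907 and 3989 in Normal 1 to 4, 3024 to 23841 (median 6923) in Grow and 8187, 2974, 4748 and 6174 in Regress 1 to 4. The groups overlapped, and the log2 fold change was -0.41 (SE 0.52, edgeR adjusted p = 0.792).

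Elovl5, an elongase of polyunsaturated fatty acids, had the highest log2 fold change of the branch. It was at 222, 194, 358 and 334 CPM in Normal 1 to 4, 263 to 1570 CPM (median 588) in Grow and 585, 401, 478 and 543 CPM in Regress 1 to 4. All tumours but Grow 3 and Grow 4 lay above the normal livers. In the tumours the log2 fold change was 1.13 (SE 0.46, edgeR adjusted p = 0.207). Gpam (0.41), Pnpla3 (0.40), Acacb (0.14), Elovl6 (-0.25) and Me1 (-0.65) had adjusted p of 0.578 to 0.959. Pnpla3, a triglyceride hydrolase and transacylase gene, was at 28.4 CPM in Normal 2 and 0.873 to 2.24 CPM in the other normal livers.

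By library, the fatty acid branch median relative to normal liver ran from -1.06 in Regress 3 to 1.28 in Grow 5, and from -0.53 to 0.51 in the normal livers. Grow 5 was the highest library for 6 of its 14 genes and Regress 3 the lowest for 4. Both branch medians were above the normal mean in Normal 4, Grow 2, Grow 5, Grow 6 and Regress 4. The cholesterol median exceeded the fatty acid median by 0.95 to 1.86 in Regress 1 to 4, by 0.95 in Grow 1, and by 1.52 and 1.51 in Grow 3 and Grow 4. It was below it by 0.13 in Grow 2 and 0.35 in Grow 5. These differences are descriptions and were not tested.

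**Figure D4:**
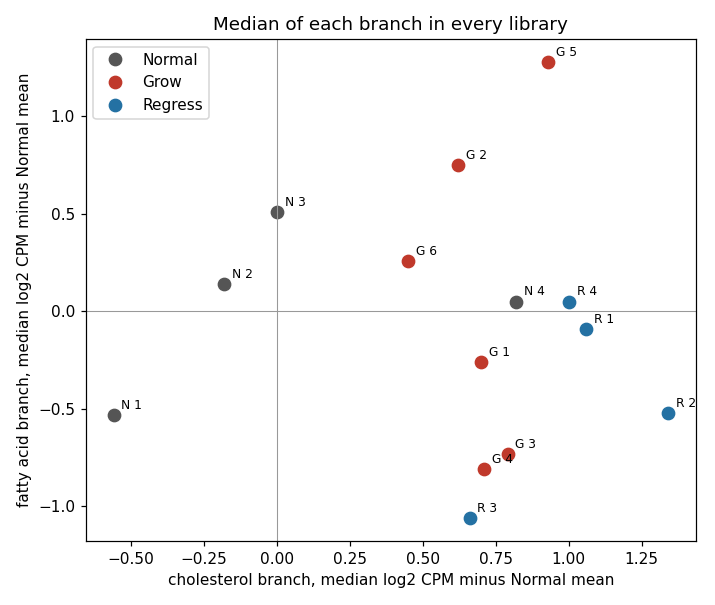
Median log2 CPM minus the mean of the normal livers for the cholesterol branch (x axis, 22 genes) and the fatty acid branch (y axis, 14 genes), 1 point per library (N Normal, G Grow, R Regress). Tumours lie between 0.45 and 1.34 on the x axis and spread from -1.06 to 1.28 on the y axis.

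Fatty acid values were also set beside transcript length, and the part of length in them was not tested. Members of that branch have longer transcripts, with a median of 4066 bases (1277 to 10050) against 2786 bases (1194 to 5097) in the cholesterol branch. The length slope was negative in Regress 1 to 3 (-0.36, -0.39 and -0.48) and highest in Normal 3 (0.45), Grow 2 (0.42) and Regress 4 (0.39). Slope and fatty acid median did not share 1 order. Normal 2 had a slope of -0.26 and a median of 0.14, and Grow 3 a slope of -0.14 and a median of -0.73. With each library's length trend removed, the fatty acid median was -0.52 in place of -1.06 in Regress 3, 0.94 in place of 1.28 in Grow 5 and -0.41 in place of 0.05 in Regress 4. The cholesterol median in the tumours then ran from 0.35 to 1.28. Under the same removal edgeR called 7 members in the tumours, with Lss, Cyp51, Srebf1 and Thrsp beside Hmgcs1, Mvd and Dgat2.

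**Figure D5:**
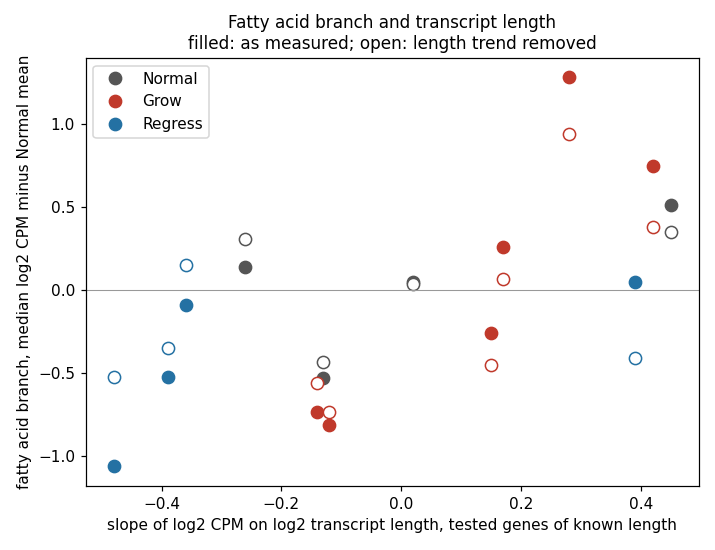
Fatty acid branch median of each library (y axis, log2 CPM minus the normal mean) against its length slope (x axis). The slope is that of log2 CPM, minus each gene's mean over all libraries, on log2 transcript length over tested genes of known length. Filled points are values as measured and open points values with the length trend removed; Regress 3, at the left end, moves from -1.06 to -0.52.

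Hepatocyte marker sums, of which Alb was the largest part, and Fasn were both lowest within Grow in Grow 3 and Grow 4. The sums there were 42408 and 42473 CPM, with Fasn at 207 and 190 CPM. The other 4 Grow tumours did not share 1 order. Their sums were 191735, 190874, 232285 and 245188 CPM in Grow 1, 2, 5 and 6, with Fasn at 524, 729, 802 and 504 CPM. Regress 3 had a sum of 183206 CPM and Fasn at 149 CPM. Adipocytes also make fat. The sum of 8 adipocyte markers was 481 to 3118 CPM in Normal, 106 to 1192 CPM in Grow and 243 to 1815 CPM in Regress, most of it Car3, which liver also expresses. Of these markers Adipoq, Plin1, Cfd and Lep were at 0 in the normal livers apart from Adipoq at 0.145 CPM in Normal 4. In the tumours the highest levels were 7.21 CPM of Adipoq and 29.9 CPM of Cfd, both in Regress 3. Fabp4 and Cidec were called higher in the tumours (log2 fold change 3.08 and 4.25, edgeR adjusted p = 0.029 and 0.0417), and Car3, the other tested marker, gave -1.89 (adjusted p = 0.145). Of the other marker lists, 1 of 8 tested Kupffer and macrophage genes (Cd14), 2 of 7 endothelial genes (Lyve1 and Cd34) and 1 of 8 stellate and fibroblast genes (Tagln) were called higher in the tumours, and Dcn, a fibroblast proteoglycan, was called lower in Grow (log2 fold change -2.36, edgeR adjusted p = 0.0178). Cd14 gave a log2 fold change of 3.06 in the tumours, but the median of its list was -0.55, with Clec4f at -1.29 and Lyz2 at 0.65, both uncalled. The endothelial median was 0.30. The called genes therefore do not stand for these 2 lists. Of cholangiocyte and lymphocyte markers 0 of 4 and 0 of 2 tested were called. Stellate and fibroblast markers had a median log2 fold change of 2.27, and their sum was 946 CPM in Regress 4 against 62.2 to 343 CPM in the other libraries. Regress 4 was also the highest library for Hmgcs1 and the lowest for Thrsp. Cholangiocyte markers summed to 147 CPM in Regress 3, where the median of the fatty acid branch was lowest, and to 14 to 117 CPM elsewhere. The part of these cell types in the results was not tested.

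In Regress alone against Normal, 0 of 36 genes were called by edgeR, beside 0.0244% of all tested features. An unadjusted p under 0.05 was found for 17 genes and for 1988 of 12300 tested features. DESeq2 called 9 and limma-voom 0. The median log2 fold change was 0.89 in the cholesterol branch and -0.58 in the fatty acid branch, beside 0.03 over all tested features. The fatty acid median was -0.24 with the length trend removed, -0.38 without Normal 3 and -0.37 without Regress 3. Without Regress 1 edgeR called 6 genes, namely Hmgcs1, Lss, Cyp51, Mvd, Mvk and Mlxipl. In Grow the medians were 0.66 and 0.17, beside 0.00 over all tested features. The cholesterol median in Grow was 1.09 without Normal 4. The sign of the fatty acid median in Grow was not stable, with -0.03 without Normal 1 and -0.02 without Grow 5. It was 0.08 without Normal 2 or Normal 4, 0.09 without Grow 2, 0.41 without Normal 3, 0.04 with the length trend removed and 0.53 with the drug terms. Grow and Regress share the 4 normal livers, so these values are not independent.

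Regress against Grow compared the tumour groups directly, and edgeR called 0 of 36 genes and 0% of all tested features. SAHA was given only in Grow and TMZ without SAHA only in Regress, so this comparison also carries differences in drug. An unadjusted p under 0.05 was found for 3 genes and for 1230 of 12300 tested features. DESeq2 and limma-voom called 0. Those 3 genes were Thrsp (log2 fold change 1.85, SE 0.59, adjusted p = 0.474), Tm7sf2 (0.99, SE 0.38, adjusted p = 0.474) and Elovl6 (-0.81, SE 0.32, adjusted p = 0.474). Tm7sf2, a sterol reductase, was at 70.1 to 152 CPM (median 121) in Grow and 296, 257, 270 and 81.4 CPM in Regress 1 to 4. Regress 4 alone lay inside the Grow range. Without Regress 4 edgeR called Srebf2, Tm7sf2 and Thrsp. The branch medians were 0.24 for cholesterol and -0.53 for fatty acid genes, beside -0.01 over all tested features. The fatty acid median was -0.20 with the length trend removed, -0.27 without Grow 5, -0.32 with limma-voom and -0.81 with the drug terms, and the cholesterol median was 0.04 with the drug terms.

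TMZ had been given to 5 of the 10 tumours, at 31 mg/kg in Regress and 22 mg/kg in Grow, and edgeR called 0 of 36 genes for it beside 0% of all tested features. An unadjusted p under 0.05 was found for 5 genes and for 1704 of 12300 tested features. DESeq2 called 1 (Lss) and limma-voom 0. Lss was at 124, 54 and 51.5 CPM in Grow 2, 3 and 4 and at 55.6 and 52 CPM in Regress 1 and 3, all with TMZ. Without TMZ it was at 150, 155 and 95.9 CPM in Grow 1, 5 and 6 and at 149 and 245 CPM in Regress 2 and 4. Grow 2 was the 1 tumour with TMZ inside the range of those without it. The low end of that range was Grow 6, which had SAHA. Grow 2 lay below the tumours with neither drug, which were at 149 to 245 CPM. The log2 difference with TMZ was -1.23 (SE 0.34, edgeR adjusted p = 0.155; DESeq2 adjusted p = 0.0202). Gpam (-1.23), Acly (-1.01), Me1 (1.18) and Ebp (0.72) were the other 4, with adjusted p of 0.241 to 0.308. Without Grow 2 edgeR called Lss, Acly and Gpam, and without any other single library it called 0 genes. The lowest edgeR adjusted p of the 36 genes was 0.391 without Grow 3 and 0.399 without Grow 4. It was 0.398 with Grow 3 and Grow 4 summed. The branch medians were -0.14 for cholesterol and -0.28 for fatty acid genes, beside -0.03 over all tested features. The fatty acid median was -0.81 without Grow 2, -0.43 without Grow 1, -0.09 without Grow 3 or Grow 4 and -0.02 without Grow 5. The cholesterol median was -0.29 without Grow 6 and -0.02 without Regress 4.

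SAHA was given to 4 of the 6 Grow tumours, 3 of them with TMZ, so the drugs cannot be told apart there. edgeR called 0 of 36 genes and 0% of all tested features, no gene had an unadjusted p under 0.05, and DESeq2 and limma-voom called 0. The largest difference was that of Pnpla3 (log2 -1.59, SE 1.12, adjusted p = 1). The branch medians were -0.13 for cholesterol and -0.58 for fatty acid genes, beside 0.01 over all tested features. The fatty acid median turned to 0.11 without Grow 5 and was -0.97 without Grow 1 and -1.03 without Grow 2. The cholesterol median was -0.21 without Grow 3 or Grow 4 and 0.00 without Grow 6.

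Other genes of the same pathways were taken from lists outside the 36. Of 26 further genes of sterol synthesis, uptake and SREBP control, 1 was called higher in the tumours and 0 lower, and the median log2 fold change was 0.04. The called gene was Npc1l1, a sterol uptake transporter. It was at 0 in all 4 normal livers and from 0 in Regress 1 to 17.8 CPM in Regress 4 (edgeR adjusted p = 0.0403). Insig2, the other INSIG protein, gave a log2 fold change of 1.11 (adjusted p = 0.156).

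Of 27 tested further genes of fatty acid and triglyceride synthesis, edgeR called 0 in either direction, and the median log2 fold change was 0.02. Scd2, a second desaturase, was at 3.64 to 7.77 CPM in the normal livers, 22.1 to 265 CPM in Grow and 2.17, 77.9, 13.4 and 433 CPM in Regress 1 to 4. All tumours but Regress 1 lay above the normal livers (log2 fold change 4.52, SE 1.22, adjusted p = 0.0635). The desaturases Fads1 and Fads2 gave 0.96 (adjusted p = 0.213) and 1.24 (adjusted p = 0.184).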

How the data were processed

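Per the labels' protocols, RNA of snap-frozen tissue was sequenced after an Illumina TruSeq RNA v2 preparation, which does not mark strand. Salmon 0.3.1, edgeR 3.14.0 and build mm9 are named in the submitters' processing notes, with no roles. The deposited values are the authors' estimated counts (expected counts) for 35230 RefSeq transcripts, and 1 further column with no values was not used. Transcripts were matched to symbols through RefSeq GRCm38.p6 (26081 rows) or GENCODE M21 (144), and 9005 had no match (3.52% to 12.1% of a library). Counts were summed per gene and rounded.

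edgeR 4.0.16 in R 4.3.3 fitted the quasi-likelihood test to 12300 features (TMM, filterByExpr) in 14 samples and 3 groups, without covariates. TMZ was a term beside the group, and SAHA was tested within Grow. Benjamini-Hochberg adjustment ran over all features, and SE is the log2 fold change over the root of F. Log2 CPM used a prior count of 2. Alternatives were DESeq2 1.42.0, limma-voom 3.58.1, other scaling and filters, left-out libraries, drug terms, length and a replicate block. The code was tested on simulated data. Precision is limited by the number of libraries. The members and lists were chosen with earlier results of these data known. Values were named for genes called, for the 4 largest changes of each branch, and for regulators and entry enzymes. Genes printed for the drugs, the markers and the other lists, and further members, were picked with their values in view. Some genes of the lists are not reported here.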

Additional observations from a re-analysis of the deposited data

Results flagged for a closer look

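Of 108 gene and group combinations, 5 had a library set apart from the rest of its group by a gap larger than Dixon's 95% limit, and chance alone flags about 1 in 20. In the normal livers, Msmo1, a demethylase after lanosterol, was at 429 CPM in Normal 4 and 74.1 to 75.9 CPM in the other 3. Acacb, the mitochondrial acetyl-CoA carboxylase, was at 5.79 CPM in Normal 1 and 48.4 to 67.8 CPM in the other 3. Hmgcs1 was at 132 CPM in Grow 6, against 224 to 289 CPM in the other 5 Grow tumours, and at 466 CPM in Regress 4, against 159 to 171 CPM in the other 3 Regress tumours. Tm7sf2 was at 81.4 CPM in Regress 4 and 257 to 296 CPM in the other 3.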

How the results depend on the processing

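The number of members called was sensitive to the test and to single libraries, and the cause was not tested. For the alternative fits the share of all tested features called is not given, so a change in count may not be particular to the members. In Tumour against Normal, 3 became 11 with DESeq2, 7 with the length trend removed, 1 with Grow 3 and Grow 4 summed and 0 without Normal 4 and Regress 2. In Grow against Normal, 2 became 9 with DESeq2, 5 with the length trend removed, 5 with only the compared groups, 1 with no filter, 1 without Normal 4 and Regress 2, and 0 with Grow 3 and Grow 4 summed. In Regress against Normal, 0 became 9 with DESeq2, 3 with the length trend removed and 2 with the drug terms. For TMZ, DESeq2 called 1. Leaving out 1 library gave 0 to 9 (Tumour), 0 to 4 (Grow), 0 to 6 (Regress), 0 to 3 (Regress against Grow), 0 to 3 (TMZ) and 0 to 0 (SAHA). The tumour count was 9 without Regress 1 and 0 without Normal 1, 2 or 3 or Grow 5.

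With a replicate block 0 members were called in any group comparison, the lowest adjusted p in Tumour against Normal being 0.173. Same-numbered samples correlated at -0.52 to 0.20 in their deviations from the group means. The labels state no pairing by number, and with groups this small such correlations can neither show nor exclude one. The cholesterol median kept its sign, at 0.54 to 1.07 without single libraries, and the fatty acid median was -0.43 to 0.00. It was 0.00 without Normal 3, -0.43 without Normal 1, -0.41 without Regress 4, -0.14 without Regress 3 and -0.02 with the drug terms. Uncalled values changed sign for Insig1 (-0.11 without Normal 4 and Regress 2, -0.04 to 0.39 without single libraries), Fasn (0.19 with drug terms, -0.55 to 0.59), Acaca (0.20 with drug terms, 0.02 with the length trend removed, -0.38 to 0.39) and Acly (-0.01 with the replicate block). The block moved the fatty acid median to -0.09 in Grow, -0.05 in Regress against Grow, 0.08 for TMZ and -0.12 for SAHA, and the cholesterol median to -0.41 for SAHA. Grow 3 and Grow 4 were the closest pair (r = 0.9792). They differed by more than counting noise and were kept as 2 samples, which does not show that they are separate animals.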

Other observations

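Among 20 genes of the fed, fasted and clock state, 19 were tested and 4 passed in the tumours. Igfbp1, a binding protein of insulin-like growth factors that insulin represses, was at 4.33 to 30.5 CPM in the normal livers and 44.7 to 1130 CPM in the tumours, with no overlap (log2 fold change 5.12, edgeR adjusted p = 0.029). Pdk4, a kinase that blocks pyruvate oxidation in fasting, was at 1.34 to 2.98 CPM against 3.81 to 31.9 CPM (2.97, adjusted p = 0.029). Fgf21, a fasting hormone, was at 1.58 to 3.35 CPM against 3.54 to 35.5 CPM (2.42, adjusted p = 0.0348). The clock gene Per2 was lower (-1.73, adjusted p = 0.046). The labels used here give no hour of collection or feeding state, so the part of either in the sterol and fatty acid values was not tested.

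Of 12 genes of LXR and cholesterol efflux, edgeR called 0, and their median log2 fold change in the tumours was -0.17. Cyp7a1, the rate-limiting enzyme of bile acid synthesis, was at 86.5 to 549 CPM in the normal livers, highest in Normal 4, and from 0 in Grow 5 to 142 CPM in Grow 4 (-2.38, SE 1.27, adjusted p = 0.363).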
